A study of Homo sapiens with 4 samples.

Results

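The genes described here are those of 2 BET proteins, BRD2 and BRD3, and of the machinery around the elongation kinase P-TEFb: its kinase CDK9, its cyclins CCNT1 and CCNT2, its inhibitors HEXIM1 and HEXIM2, and the 7SK RNA-binding proteins LARP7 and MEPCE. They were picked by symbol, by a rule that uses no measured value but was written with earlier results of these data known. Of 58037 rows of a count table all 9 were found and had enough counts to be tested among 15718 genes. The table holds RNA-Seq counts from OCI-AML3, an established human AML cell line in which 1 NPM1 allele carries the mutation that sends the protein to the cytoplasm (mtNPM1) and which also carries a heterozygous DNMT3A and a homozygous NRAS mutation. Cells received a control guide (sgRNA Ctrl, sgNeg in the labels, 2 libraries) or sgNPM1A, a CRISPR guide against the mutant allele (2 libraries), and RNA was taken 72 hours after transfection, with no drug named. The total per library lay between 25069484 and 28276391 counts. The question put to these genes is whether loss of mtNPM1 was accompanied by a change in the mRNA of the proteins that read acetylated chromatin and release paused RNA polymerase II.

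BET proteins carry a pair of bromodomains that bind acetylated lysines on histones and an extra-terminal domain that recruits partner proteins. P-TEFb, made of CDK9 and a cyclin T, phosphorylates RNA polymerase II and its pausing factors so that the enzyme can leave the promoter-proximal pause. Part of the P-TEFb of a cell is held inactive in the 7SK particle, in which HEXIM1 or HEXIM2 blocks the kinase, MEPCE caps the 7SK RNA and LARP7 binds its end. The NPM1 protein is known to bind HEXIM1, and its cytoplasmic mutant to hold part of HEXIM1 in the cytoplasm, which is a matter of protein location that counts of mRNA do not measure.

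BRD3 was the only one of the 9 genes that passed the test, and it fell. A gene was called when edgeR's quasi-likelihood test gave a Benjamini-Hochberg adjusted p under 0.05 across the tested genes and the change was 1.25-fold or more. By this rule 20.8% of the tested genes were called, 10.5% higher and 10.3% lower, so that 1 of 9 is no larger a share than in the table as a whole. Without the fold threshold, the adjusted p was under 0.05 in 26% of tested genes, so an unadjusted p under 0.05 is at least that common. Regardless of sign, the median log2 fold change was 0.13 among the 9 genes and 0.22 among the tested genes. In 5 of the 9 the libraries of the conditions did not overlap, against 63.1% of tested genes, with sgNPM1A lower in 4 (31.7% of tested genes) and higher in 1 (31.4%). For 6 of them, BRD2, CDK9, CCNT1, CCNT2, HEXIM1 and LARP7, the 95% interval of the change lay inside 1.25-fold on either side, which was the case for 23.7% of tested genes. For MEPCE and HEXIM2 the interval reached past 1.25-fold downwards.

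**Figure D1:**
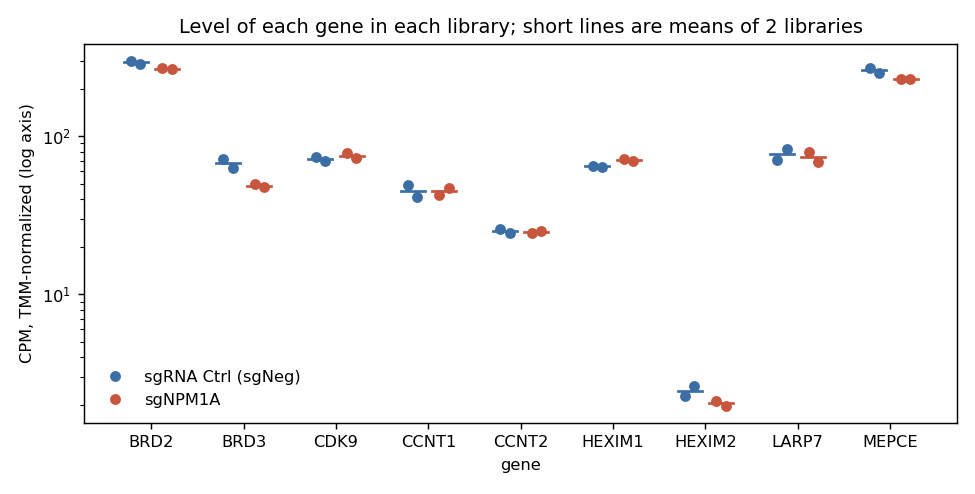
Level of each gene in each library, in CPM (counts scaled to a common library size with TMM normalization) on a log axis; points are the 2 libraries of sgRNA Ctrl (sgNeg, blue) and of sgNPM1A (red), and short lines their means. BRD3 stood between 63.1 and 71.5 CPM with sgRNA Ctrl and at 47.4 and 49.6 CPM with sgNPM1A, while the points of CDK9, CCNT1, CCNT2 and LARP7 overlapped between conditions.

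The targeted gene and the markers of the line were examined first. NPM1 had 33522 and 35881 counts with sgRNA Ctrl and 33154 and 31428 counts with sgNPM1A. Its difference of -0.22 on the log2 scale (edgeR adjusted p = 0.0360) was under 1.25-fold, while limma-trend gave -0.42 (adjusted p = 0.00108). Both alleles are counted together here, so the values do not check the edit. Of 8 myeloid markers 7 were tested, and 4 of them, LYZ (lysozyme), MPO (myeloperoxidase), ANPEP and SPI1, were called higher with sgNPM1A. The summed level of the 8 markers was 1314 to 1337 CPM with sgRNA Ctrl and 3956 to 4681 CPM with sgNPM1A. Without LYZ, which makes up most of that rise, it was 1067 to 1099 CPM and 1313 to 1314 CPM. The defining T cell markers CD3D, CD3E and CD2 and the B cell marker MS4A1 had 0 counts in every library, as had the epithelial marker EPCAM. Of 3 fibroblast markers, which are collagen and matrix genes, 2 were tested and both, COL1A2 and DCN, were called lower. The call of DCN, with 5 to 15 counts a library, was lost without a filter on low counts. It was also lost with each library left out, at log2 fold changes between -1.58 and -1.31. DESeq2 called COL1A2 but gave DCN no adjusted p, so DCN was not assessed by it. The summed level of the 3 was 28.1 to 29.4 CPM with sgRNA Ctrl and 9.62 to 13.3 CPM with sgNPM1A. In bulk RNA a change in the mix of cells and a change of RNA per cell cannot be told apart, and the part of these markers in the results below was not tested. Nothing in the labels says that the libraries came from separate cultures, while the study calls them biological replicates, so the p-values measure the spread between 2 libraries of each condition.

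Sequences are shown for the gene that fell, BRD3, and for HEXIM1, whose mRNA is widely used as a readout of BET inhibition. Each is the stretch of 250 bases before 1 transcript start of the gene that RefSeq gives on GRCh38.p14, written 5′ to 3′ on the strand of the gene. Capitals mark every match on either strand to the TATA box TATAAA, the CCAAT box, the GC box with the letters GGGCGG, the E-box of MYC with the letters CACGTG and the MEIS core with the letters TGACAG, and GC boxes that share bases run together.
BRD3, chr9:134068027-134068276, minus strand: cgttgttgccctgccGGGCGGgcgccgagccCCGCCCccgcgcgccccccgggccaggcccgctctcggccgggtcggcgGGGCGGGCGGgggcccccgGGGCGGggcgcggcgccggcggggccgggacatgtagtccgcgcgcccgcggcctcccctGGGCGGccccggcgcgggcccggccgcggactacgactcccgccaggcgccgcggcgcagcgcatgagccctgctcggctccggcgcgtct
HEXIM1, chr17:45148225-45148474, plus strand: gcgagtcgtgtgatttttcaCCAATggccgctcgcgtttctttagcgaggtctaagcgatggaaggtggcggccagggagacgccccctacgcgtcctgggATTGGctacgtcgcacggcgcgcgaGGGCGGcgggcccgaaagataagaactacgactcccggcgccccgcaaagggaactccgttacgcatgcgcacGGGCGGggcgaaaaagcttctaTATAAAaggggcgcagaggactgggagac

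The BRD3 stretch consisted of G and C for 86.8% of its bases, against 62.4% for HEXIM1 and a median of 58% over 35116 such stretches. Of the 5 motifs it held the GC box alone, which 42.6% of all stretches hold. HEXIM1 held a TATA box from 29 to 24 bases before its start, present in 10.7% of all stretches, and CCAAT, present in 32%, from 230 to 226 bases and, on the opposite strand, from 149 to 145 bases before it. The HEXIM1 stretch held the GC box as well, from 124 to 119 and from 51 to 46 bases before the start. Neither stretch held CACGTG, found in 6.34% of all stretches, or TGACAG, found in 13%. These are matches of letters and describe the sequence only. For BRD3 this is not the outermost start: its RefSeq span on the minus strand begins at position 134068548, so the stretch lies within the gene.

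BRD3 encodes a BET protein that is known to bind acetylated GATA1 as well as histones, and it lies on chromosome 9 of GRCh38 from 134030305 to 134068548, on the minus strand. It had 1818 and 1633 counts with sgRNA Ctrl and 1383 and 1317 counts with sgNPM1A. In CPM these were 71.5 and 63.1, and 49.6 and 47.4. Both sgNPM1A libraries lay below both sgRNA Ctrl libraries. The separation of the conditions was found in 63.1% of tested genes, 31.7% of them with sgNPM1A lower, so it carries little by itself. edgeR gave a log2 fold change of -0.47 (standard error 0.08, 95% interval -0.66 to -0.29, adjusted p = 0.00171), a fall of 1.39-fold. Its size was above that of 76.6% of the tested genes. In the 4 pairings of an sgNPM1A with an sgRNA Ctrl library, the fold lay between 0.663 and 0.787. The sgRNA Ctrl libraries differed from each other more than the sgNPM1A libraries did, with 67.3 ± 5.99 against 48.5 ± 1.55 CPM (SD, n = 2 each).

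A neighbour shares sequence with BRD3. BRD3OS, a gene annotated on the opposite strand, overlaps it by 1283 bases, and 17.9% of the words of 50 bases in BRD3 transcripts occur in BRD3OS transcripts read on the other strand. BRD3OS had 878 and 847 counts with sgRNA Ctrl and 713 and 780 counts with sgNPM1A. It was also called lower, by -0.33 on the log2 scale (edgeR adjusted p = 0.0198), but not when sgRNA Ctrl replicate 1 or either sgNPM1A library was left out (adjusted p = 0.0637, 0.247 and 0.0526). Whether the reads were counted by strand is not given in the sources used here, so reads of the stretch both genes cover cannot be told apart.

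BRD2, a BET protein encoded within the MHC region of chromosome 6 from 32968594 to 32981505, was the more abundant of the pair. It had 7582 and 7438 counts with sgRNA Ctrl and 7483 and 7413 counts with sgNPM1A, which were 298 and 287, and 268 and 267 CPM. The sgNPM1A libraries lay lower by a margin wider than the gap between replicates, but the difference was small. At -0.13 on the log2 scale (standard error 0.06, interval -0.27 to 0.01), it had an adjusted p of 0.163 from edgeR and was not called. The crossed replicate block, which pairs libraries of unlike number and was added after the data were seen, gave BRD2 an adjusted p of 0.0189 (edgeR). The change stayed under 1.25-fold. BRDT, the BET gene known from the testis, had 0 counts in every library.

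The ratio of the BET genes does not depend on how libraries are scaled. In counts per kilobase of exon, BRD2 was 3.19 and 3.49 times BRD3 with sgRNA Ctrl and 4.14 and 4.31 times BRD3 with sgNPM1A. The means were 3.34 ± 0.208 and 4.22 ± 0.118 (SD, n = 2 libraries), a rise of the ratio by 1.27-fold without overlap. An exact two-sided permutation test of 2 libraries against 2 gave p = 0.333, which is the smallest it allows.

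**Figure D2:**
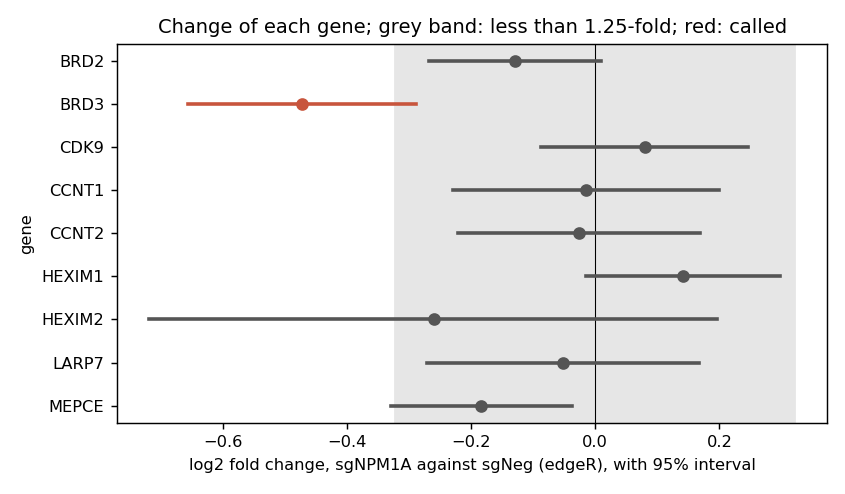
Log2 fold change of each gene, sgNPM1A against sgNeg, from edgeR (point) with its 95% interval (line); the grey band marks changes of less than 1.25-fold and red marks the called gene. The interval of BRD3, -0.66 to -0.29, lay below zero, those of 6 genes lay within the band, and those of MEPCE and HEXIM2 reached past its lower edge.

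None of the 3 genes of P-TEFb itself was called by edgeR, DESeq2 or limma-trend, and 0 had an unadjusted p under 0.05 in edgeR. Of all tested genes 26% had even an adjusted p under 0.05. CDK9, the kinase, on chromosome 9 from 127786034 to 127790792, had 1869 and 1797 counts with sgRNA Ctrl and 2190 and 2011 counts with sgNPM1A. In CPM these were 73.5 and 69.4, and 78.6 and 72.4, so that the lower sgNPM1A library fell between the sgRNA Ctrl libraries. Its log2 fold change was 0.08 (interval -0.09 to 0.25, adjusted p = 0.490, edgeR).

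CCNT1, the main cyclin partner of CDK9, lies on chromosome 12 from 48688458 to 48716707. It had 1247 and 1077 counts with sgRNA Ctrl and 1181 and 1314 counts with sgNPM1A. In each condition its 2 libraries were further apart than the 2 means, which were 45.3 ± 5.28 and 44.8 ± 3.50 CPM (SD, n = 2). The difference was -0.01 on the log2 scale (interval -0.23 to 0.20, edgeR adjusted p = 0.930). Its sign turned when either sgRNA Ctrl replicate 1 or sgNPM1A replicate 1 was left out, with values of 0.11 and 0.07.

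CCNT2, the second cyclin T, on chromosome 2 from 134918822 to 134959342, had 662 and 635 counts with sgRNA Ctrl and 685 and 696 counts with sgNPM1A. At 26.0 and 24.5, and 24.6 and 25.1 CPM, it varied least of the 9 genes over the 4 libraries. Its log2 fold change by edgeR was -0.03 (interval -0.22 to 0.17, adjusted p = 0.859), and without sgRNA Ctrl replicate 1 it was 0.02. CCNT2-AS1, on the opposite strand near its start, had between 9 and 14 counts.

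The ratios of the subunits can be read within each library. CCNT1 was 2.32 and 2.09 times CCNT2 per kilobase of exon with sgRNA Ctrl, and 2.12 and 2.33 times with sgNPM1A (exact two-sided permutation p = 0.667). CDK9 was 2.57 and 2.77 times the sum of the cyclins with sgRNA Ctrl and 3.09 and 2.63 times with sgNPM1A (exact permutation p = 0.667). In both ratios the conditions overlapped. With 2 libraries each, a difference smaller than this spread was not detectable.

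The HEXIM genes lie beside each other on chromosome 17, HEXIM1 from 45148475 to 45152099 and HEXIM2 from 45160174 to 45170040, with 8075 bases between them. HEXIM1, the inhibitor of P-TEFb named for its induction by the differentiating agent HMBA, had 1659 and 1654 counts with sgRNA Ctrl and 2016 and 1946 counts with sgNPM1A. After scaling to library size these were 65.3 and 63.9, and 72.3 and 70.1 CPM. Both sgNPM1A libraries were above both sgRNA Ctrl libraries, by between 1.07- and 1.13-fold in the 4 pairings. The log2 fold change was 0.14 (standard error 0.07, interval -0.02 to 0.30, adjusted p = 0.176, edgeR), which was not called, and the upper end of the interval is a rise of 1.23-fold. With the crossed replicate block, added after the data were seen, the adjusted p was 0.0401 (edgeR), still under 1.25-fold.

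HEXIM2, the paralog that can take the place of HEXIM1 in the 7SK particle, was by far the rarer. It had 58 and 68 counts with sgRNA Ctrl and 59 and 55 counts with sgNPM1A. Counting error alone gives the 68 counts an exact Poisson 95% interval of 52.8 to 86.2 counts and the 55 counts one of 41.4 to 71.6. These intervals overlap, in counts not scaled for depth. At 2.28 and 2.63, and 2.12 and 1.98 CPM, the sgNPM1A libraries were both lower. edgeR put the difference at -0.26 on the log2 scale (standard error 0.21, interval -0.72 to 0.20, adjusted p = 0.400), an interval that takes in both the value of BRD3 and 0, so a difference was not detectable at this depth. Of the words of 50 bases of HEXIM2, 66.7% occur on the opposite strand in annotated antisense genes. They are found in ENSG00000267288, for which no count was used here, and in HEXIM2-AS1, which had 2 counts or fewer in each library. As the strand setting is not given, reads of the shared stretches cannot be told apart.

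Per kilobase of exon HEXIM1 was 15.8 and 13.5 times HEXIM2 with sgRNA Ctrl and 18.9 and 19.6 times with sgNPM1A. The conditions did not overlap, the ratio was higher by 1.32-fold with sgNPM1A, and the exact two-sided permutation p was 0.333, the smallest possible. The ratio rests on 55 to 68 counts of HEXIM2 a library, whose own difference was not detectable, so it carries the same counting error. The limit on reads of stretches shared with antisense genes applies to the ratio as well. The sum of both inhibitors stood at 0.782 and 0.820 times CDK9 with sgRNA Ctrl and at 0.803 and 0.843 times CDK9 with sgNPM1A. These values overlapped (exact permutation p = 0.667), and their log2 difference was 0.04. This is less than the spread between replicates.

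**Figure D3:**
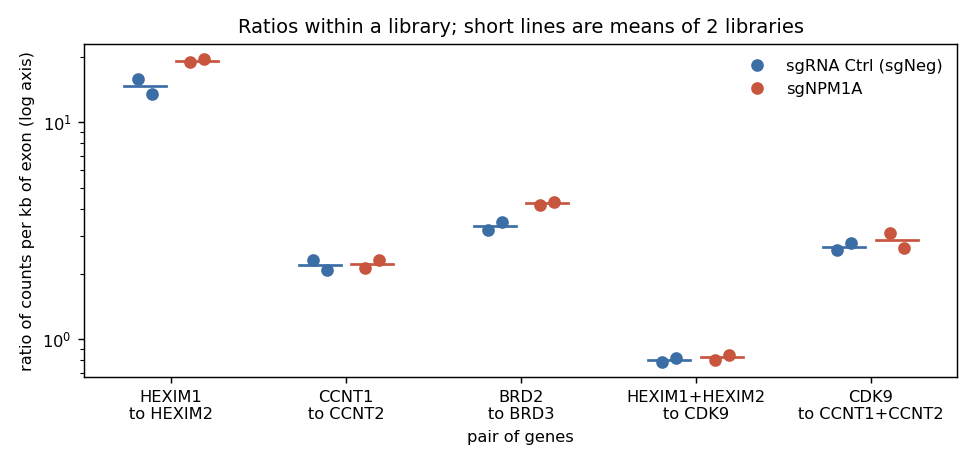
Ratios of counts per kilobase of exon between pairs of genes within each library, on a log axis, with sgRNA Ctrl (sgNeg) in blue and sgNPM1A in red; short lines are means of 2 libraries. HEXIM1 to HEXIM2 and BRD2 to BRD3 were higher in both sgNPM1A libraries, and the other 3 ratios overlapped. The ratio of HEXIM1 to HEXIM2 rests on 68 counts of HEXIM2 or fewer a library.

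Neither gene of the 7SK-binding proteins was called by edgeR, DESeq2 or limma-trend, and 1, MEPCE, had an unadjusted p under 0.05 in edgeR. This is common here, as 26% of all tested genes had even an adjusted p under 0.05. LARP7, which binds the 3′ end of 7SK RNA, lies on chromosome 4 from 112637143 to 112657586. It had 1787 and 2163 counts with sgRNA Ctrl and 2231 and 1896 counts with sgNPM1A. In CPM, 70.3 and 83.5 stood against 80.0 and 68.3, so each condition had a high and a low library and the ranges overlapped. edgeR gave a difference of -0.05 on the log2 scale (interval -0.27 to 0.17, adjusted p = 0.744). It became 0.08 without sgRNA Ctrl replicate 2 and 0.06 without sgNPM1A replicate 2. The miR-302 cluster is annotated on the opposite strand within LARP7, and its host gene MIR302CHG had between 1 and 4 counts.

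MEPCE, the capping enzyme of 7SK RNA, on chromosome 7 from 100428790 to 100434118, had 6886 and 6483 counts with sgRNA Ctrl and 6412 and 6359 counts with sgNPM1A. These were 271 and 250, and 230 and 229 CPM, with both sgNPM1A libraries lower. From edgeR the difference was -0.18 on the log2 scale (standard error 0.07, interval -0.33 to -0.04, adjusted p = 0.0655), or 1.14-fold, so it missed both parts of the rule. The adjusted p passed 0.05 with upper quartile scaling (0.0495), with library size only (0.0296), with limma-trend (0.0474), without sgRNA Ctrl replicate 2 (0.0221) and with the crossed replicate block, an alternative added after the data were seen (0.000612), each time under 1.25-fold. Of its words of 50 bases, 58.3% also occur in ENSG00000289690 on the same strand, for which no count was used here.

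The 7SK RNA itself gave no measurement. Both identifiers of RN7SK had 0 counts in every library, which allows up to 0.12 CPM by counting error alone, and 0 counts of a gene do not show that its RNA was absent. POLR2F, a subunit gene of RNA polymerase II that every cell uses, was likewise at 0, 5, 1 and 0 counts.

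Compared per kilobase of exon, the levels of the 9 genes spanned a wide range with the same genes at either end in both conditions. MEPCE was highest at 77.3 ± 4.31 CPM per kilobase with sgRNA Ctrl and 68.1 ± 0.214 with sgNPM1A (SD, n = 2). It was followed by BRD2 at 32.5, CDK9 at 23.8 and HEXIM1 at 17.8 CPM per kilobase with sgRNA Ctrl, none of which overlapped its neighbour in the order. BRD3 at 9.77 and LARP7 at 9.50 CPM per kilobase came next, and their sgRNA Ctrl libraries overlapped. With sgNPM1A, LARP7 at 9.16 stood above BRD3 at 7.05 CPM per kilobase without overlap. CCNT1 at 6.15, CCNT2 at 2.78 and HEXIM2 at 1.22 CPM per kilobase closed the order with sgRNA Ctrl, and the 3 genes kept their places with sgNPM1A. The lengths join all annotated exons of a gene, and a gene that uses few of them appears lower than it is. Of the words of 50 bases of HEXIM2, 66.7% are shared with antisense genes, and of those of MEPCE 58.3% on the same strand. The effect of this sharing on the levels was not tested.

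The genes around these 9 were described with 8 lists chosen by symbol, which hold 81 further genes, 79 of them tested. Of these, 6 were called higher and 3 lower, 11.4% against 20.8% of all tested genes, and their median size of change was 0.14 on the log2 scale. No set test was made, and these shares are a description.

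The super elongation complex carries P-TEFb to paused polymerase on an AFF scaffold. Of its 9 tested genes 2 were called higher and 1 lower, against 10.5% and 10.3% of all tested genes. The median log2 fold change was -0.04, against 0.00 for all tested genes, and has no settled sign: it was 0.11 without sgRNA Ctrl replicate 1, -0.15 without sgRNA Ctrl replicate 2 and 0.046 without sgNPM1A replicate 1. ELL2, an elongation factor of the complex, had 361 and 283 counts with sgRNA Ctrl and 491 and 631 counts with sgNPM1A, and rose by 0.68 on the log2 scale (edgeR adjusted p = 0.00631). Without sgRNA Ctrl replicate 2 its value was 0.51 and was not called (adjusted p = 0.0554). EAF2, an ELL-binding protein, rose from 417 and 446 to 590 and 631 counts, or 0.38 on the log2 scale (adjusted p = 0.0135), and was not called without sgNPM1A replicate 2 (0.34, adjusted p = 0.140). AFF1, a scaffold of the complex, fell from 2611 and 2069 to 1777 and 1949 counts, or -0.45 on the log2 scale (adjusted p = 0.0106), and without sgRNA Ctrl replicate 1 stood at -0.26, under 1.25-fold. In each of these genes the conditions did not overlap in CPM, which was so in 8 of the 9 tested genes of the list and in 63.1% of all tested genes.

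Of the 18 pausing and elongation factors, which include NELF, DSIF, FACT and the PAF complex, 1 was called and 17 were not, with a median of -0.08. The called gene was SKIC8, a WD repeat protein shared by the PAF complex and the cytoplasmic SKI complex. It had 844 and 946 counts with sgRNA Ctrl and 1407 and 1461 counts with sgNPM1A, and rose by 0.56 on the log2 scale (edgeR adjusted p = 0.000486). The 4 subunits of NELF had log2 fold changes between -0.14 and 0.10, and SUPT5H, the large subunit of DSIF, had -0.16 (adjusted p = 0.114).

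Among the 12 other kinases, cyclins and phosphatases of the polymerase tail, 2 were called higher and 0 lower by edgeR, with a median of 0.07. RPAP2, a phosphatase of the tail, rose from 491 and 444 to 695 and 728 counts (log2 fold change 0.49, adjusted p = 0.00378). MNAT1, the assembly factor of the CDK7 kinase, rose from 218 and 201 to 359 and 310 counts (log2 fold change 0.56, adjusted p = 0.00850), and was not called without sgNPM1A replicate 1 (0.45, adjusted p = 0.0810). Of the 11 tested subunits of RNA polymerase II none was called by edgeR, with values between -0.17 for POLR2A and 0.24 for POLR2L, and 2 had an unadjusted p under 0.05. Of the 10 genes known to release P-TEFb or to bind 7SK RNA that has lost it, among them JMJD6, PPM1G and the hnRNP genes, none was called by edgeR, with values between -0.23 and 0.17 and 2 at an unadjusted p under 0.05. DESeq2 and limma-trend called 0 genes of either list.

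**Figure D4:**
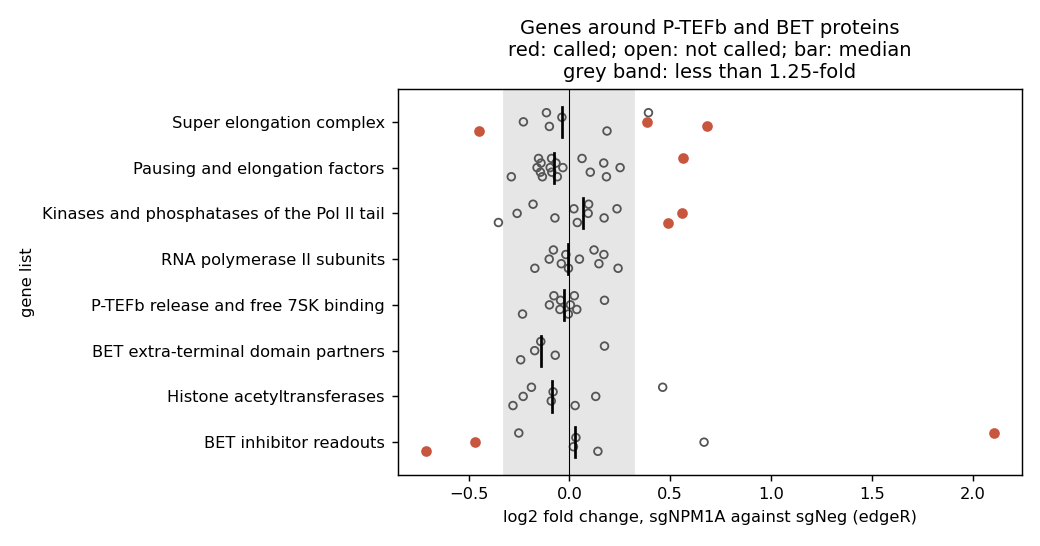
Log2 fold change of every tested gene on the 8 lists, sgNPM1A against sgNeg, from edgeR; filled red points were called, open points were not, black bars are medians and the grey band marks changes of less than 1.25-fold. The medians lay between -0.14 and 0.07, and CCR2, at 2.11, stood apart from the other points.

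Genes used as readouts of BET inhibitors were called in both directions. Besides HEXIM1, those listed because they rise under such drugs are SERPINI1, ZCCHC24, ZMYND8 and the histone gene H2BC21, and those listed because they fall are MYC, CCR2 and CD180. ZCCHC24, a zinc finger gene, fell from 1209 and 1101 counts with sgRNA Ctrl to 746 and 784 counts with sgNPM1A, or by -0.71 on the log2 scale (edgeR adjusted p = 0.000142). On the same scale ZMYND8 stood at 0.02 (adjusted p = 0.874) and H2BC21 at 0.03 (adjusted p = 0.910), and with library size only at -0.021 and -0.0081. SERPINI1, with 4 to 14 counts a library, stood at 0.67 (adjusted p = 0.386).

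Of the readouts listed for a fall, CCR2, a chemokine receptor of monocytes, rose from 524 and 470 to 2117 and 2523 counts, or by 2.11 on the log2 scale (edgeR adjusted p = 1.9e-07). CD180, a Toll-like receptor homolog, fell from 690 and 707 to 535 and 561 counts, or by -0.47 (adjusted p = 0.00287). MYC had 10433 and 10447 counts with sgRNA Ctrl and 9807 and 9220 with sgNPM1A, a difference of -0.25 (adjusted p = 0.0159), which is under 1.25-fold and was not called. Of the 8 genes 1 was thus called higher and 2 lower, where 10.5% and 10.3% of all tested genes were, and 1 of the 4 genes listed for a rise besides HEXIM1 fell. Of the 7 tested myeloid markers above, 4 were called higher with sgNPM1A, as CCR2 was, and the other 3 were not called. The condition is the same for every gene called higher, which were 10.5% of tested genes, and a link of CCR2 to the markers was not tested.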

How the data were processed

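RNA-Seq of OCI-AML3 cells gave 4 libraries, 2 per condition, grouped by the guide in their titles. The submitters' processing notes name STAR and the build hg38, and the methods add Samtools. The authors deposited 1 table of raw, unnormalized counts with Ensembl identifiers. The counting program, annotation release and strand setting are not given in the sources used here. The medium was alpha-MEM per the labels, but RPMI per the study's supplementary methods.

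Symbols were matched by Ensembl identifier for 55646 of 58037 rows, and 45 copies on the Y chromosome were left out. Positions and promoters come from RefSeq on GRCh38.p14, which found all 9 genes. Exon lengths and words come from GENCODE transcripts lifted to GRCh37, used without coordinates. edgeR 4.0.16 in R 4.3.3 was run with filterByExpr (minimum count 10), TMM, robust dispersions and the two-sided quasi-likelihood F test. Standard errors were derived from the F statistic. Ratios were tested by exact permutation.

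Alternatives were RLE, upper quartile or library-size scaling, DESeq2 1.42.0, limma-trend 3.58.1 on quantile-normalized log2 CPM, other filters and thresholds, the replicate block, and each library left out. The procedure was checked on simulated data. The 9 genes and the lists were chosen with earlier results of these data known. The text names the 9 genes, NPM1, RN7SK, BRDT, the BET readouts, neighbours within 5 kb, and up to 2 called genes a list and direction. Uncalled genes beside them, such as SUPT5H, CREBBP and POLR2F, were named after their values were seen, and not every gene the rule covers is reported here.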

Additional observations from a re-analysis of the deposited data

How the results depend on the processing

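Each of the 9 genes was recomputed under 16 alternatives. BRD3 was called lower in 15 of them, among them DESeq2, limma-trend, every scaling and every library left out, and with a fold threshold of 2 its log2 fold change of -0.47 was no longer called. Without a fold threshold, or with an unadjusted p under 0.05, the rule is looser, so BRD3 could not lose its call there. None of BRD2, HEXIM1, HEXIM2, CDK9 or MEPCE changed its sign or was called under any of the 16 alternatives. Across the 4 fits that each omit 1 library, the value on the log2 scale ran from -0.13 to 0.11 for CCNT1, from -0.068 to 0.017 for CCNT2, from -0.17 to 0.078 for LARP7, from -0.024 to 0.070 for ZMYND8 and from -0.027 to 0.094 for H2BC21, and took both signs in each. In these fits a condition has a single library, which is assumed to vary like the others. A fold threshold of 2 left 498 genes called higher and 502 lower, from 1653 and 1619.

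Nothing in the labels links libraries that carry the same number, and the deviations of same-numbered libraries had a correlation of -0.13 over genes, which became -0.52 when only the 8856 genes averaging above 10 CPM were taken. The replicate block gave 1637 genes higher and 1604 lower, and BRD3 a log2 fold change of -0.47 with an adjusted p of 0.000526 (edgeR). It changed no call among the 9 genes. KAT2B was called with the block (adjusted p = 0.0396). The crossed pairing, added after the data were seen, gave 1955 genes higher and 1918 lower.

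With library size only, without TMM, the median of all genes was lower, and 1433 genes were called higher and 1947 lower, with ZMYND8 at -0.021 and H2BC21 at -0.0081. Of 104 list medians recomputed, 16 moved by more than the spread between replicates. The median of the BET extra-terminal domain partners moved most often, in 7 of its 13 alternatives, and ran from -0.18 to -0.10. The median of the RNA polymerase II subunits reached 0.11 without sgRNA Ctrl replicate 2, and that of the BET readouts -0.014 with library size only. The depth limits HEXIM2 most, with 68 counts or fewer a library. The cause of these differences between settings was not tested.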

Other observations

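Acetylated histones, which BET proteins bind, are made by acetyltransferases. Of 8 such genes 0 were called by edgeR, DESeq2 or limma-trend, with 3 at an unadjusted p under 0.05 in edgeR. Of all tested genes edgeR called 20.8%, and 26% had an adjusted p under 0.05, so an unadjusted p under 0.05 was common. CREBBP, a large coactivator, stood at -0.28 on the log2 scale (adjusted p = 0.0213), under 1.25-fold, and was called without sgRNA Ctrl replicate 2 (-0.37, adjusted p = 0.00500). KAT2B, with 180 and 143 counts against 271 and 212, stood at 0.46 (adjusted p = 0.0640), and was called in 6 of 16 alternatives, among them the fit without a filter on low counts (adjusted p = 0.0141) and that without sgNPM1A replicate 2 (adjusted p = 0.0120). Of the 5 partners of the BET extra-terminal domain, none was called by any of the 3 tools either, with a median of -0.14 and 2 at an unadjusted p under 0.05 in edgeR. CHD4, a chromatin remodeller, had -0.24 (adjusted p = 0.0217) and JMJD6, a dioxygenase that joins BET proteins at enhancers, 0.17 (adjusted p = 0.0925).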
